A study of Mus musculus with 6 samples.

Results

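This account describes the semaphorin, ephrin, Slit and netrin guidance genes in TM3, a mouse line of Leydig cell origin. Members were the protein-coding genes of the deposited count table whose symbols belong to 9 families: semaphorins (20 genes), plexins (9), neuropilins (2), Eph receptors (14), ephrins (8), Robo (4), Slit (3), netrins (3) and Unc5 (4). They number 67 of 54532 genes, and the rule uses no measured value. RNA sequencing covered 3 libraries of cells overexpressing A20 and 3 control libraries. A20 is the ubiquitin-modifying protein encoded by Tnfaip3 and known as a brake on NF-kB. The sample titles give the controls as O/E control, and the labels call them wild type. All 6 libraries came from TM3 cells grown in the same medium with fetal bovine and horse serum. The labels do not give how A20 was delivered, whether the lines are clones, or whether replicates were separate cultures, so p-values may measure technical spread alone.

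Guidance cues steer growing axons and also set the position, contact and adhesion of mesenchymal, endothelial and epithelial cells. Secreted class 3 semaphorins act through neuropilins paired with plexins, whereas membrane-bound semaphorins mostly bind plexins directly. Ephrins and Eph receptor tyrosine kinases signal at cell contacts in both directions, ephrin-A being tethered by a lipid anchor and ephrin-B spanning the membrane. Slits bind Robo receptors, and netrins bind Dcc, neogenin and the Unc5 receptors.

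Total counts ran from 13841287 to 16917979 per library. Tnfaip3 stood at 41.0, 33.7 and 43.6 CPM (counts scaled to a common library total) in A20-overexpressing replicates 1, 2 and 3, and at 30.95, 11.9 and 15.2 CPM in control replicates 1, 2 and 3, without overlap. Control replicate 1 stood apart: across 13044 genes, which are not independent replicates, Pearson's r of log2 CPM was 0.862 to 0.875 between it and any other library and 0.969 to 0.992 among the other 5. The 7 Leydig cell markers summed to 2039 CPM in control replicate 1 and to 3.97 to 7.86 CPM in the other 5, in which Hsd3b1, Cyp17a1 and Lhcgr had no count and Star and Insl3 alone reached 1 CPM in any library. The defining markers of the labelled cell type were thus at or near 0 in those 5 libraries. Each comparison is given with all 6 libraries and without control replicate 1, a choice made with that library's behaviour known. The labels do not say whether control replicate 1 came from the same stock of cells as the others, and this was not tested, so control values that rest on it are uncertain.

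A fall in Efna1 and a rise in Sema3d were the changes in these families that passed the test, and they did so only in the fit without control replicate 1. For these genes, and for Unc5b, the 250 bases before a RefSeq start (GRCm38.p6) are shown as the sequence next to each transcript's start. The groups did not overlap in either fit for Unc5b, nor for Sema3d, Slit3, Epha2, Ephb2 and Plxna4. Slit3 was chosen for display as well, but only windows without an annotated exon are shown, and it had none. Capitals mark matches to GGGCGG, the GC box, in the windows of Efna1 and Unc5b and to CCAAT in the window of Sema3d, on either strand, and no match overlapped another. The Efna1 window (chr3:89279646-89279895, minus strand) precedes the start inside the deposited gene span, the Sema3d window is chr5:12382916-12383165 on the plus strand, and the Unc5b window is chr10:60831582-60831831 on the minus strand.
Efna1: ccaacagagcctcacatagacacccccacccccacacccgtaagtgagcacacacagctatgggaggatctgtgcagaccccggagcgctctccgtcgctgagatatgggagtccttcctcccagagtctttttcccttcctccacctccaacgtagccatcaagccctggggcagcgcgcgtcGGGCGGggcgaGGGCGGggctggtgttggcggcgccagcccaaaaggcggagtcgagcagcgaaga
Sema3d: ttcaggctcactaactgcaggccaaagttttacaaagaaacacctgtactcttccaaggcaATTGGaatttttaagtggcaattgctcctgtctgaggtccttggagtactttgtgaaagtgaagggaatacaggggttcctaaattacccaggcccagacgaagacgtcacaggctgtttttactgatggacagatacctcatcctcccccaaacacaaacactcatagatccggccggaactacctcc
Unc5b: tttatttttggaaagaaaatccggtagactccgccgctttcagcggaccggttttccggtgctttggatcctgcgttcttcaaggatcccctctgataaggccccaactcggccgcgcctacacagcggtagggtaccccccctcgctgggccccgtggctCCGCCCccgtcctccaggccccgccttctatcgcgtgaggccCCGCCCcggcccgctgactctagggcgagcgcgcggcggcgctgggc
The same search covered TGANTCA (AP-1), TATAAA, TGACGTCA and the NF-kB consensus, none of which matched in these 3 windows. Among 32851 RefSeq windows of this length, 32.7% held the GC box, 33.8% CCAAT, 6.75% AP-1, 12.4% TATAAA, 1.55% TGACGTCA and 3.9% the NF-kB consensus. Of the 67 members, 58 matched the table, with 74 windows, of which 52 held the GC box and 4 the NF-kB consensus. The windows of Efna1 and Unc5b had a GC content of 64.4% and 66.8%, and that of Sema3d 46.8%.

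TM3 cells expressed a small part of these families strongly. Levels between genes are compared here in FPKM, the authors' values scaled to gene length and library size. Of 67 members, 32 had a mean of at least 1 FPKM over the 6 libraries and 12 of at least 10, while 9 (5 EphA receptors, Sema4f, Sema5b, Unc5c and Unc5d) had no count in any library. Plxnb2, a plexin for class 4 semaphorins, averaged 110 FPKM, Slit3 105 FPKM and Unc5b 67.1 FPKM, and these 3 genes made up 48.3% of the summed level. They were followed by Plxna1 at 37.1, Epha2 at 31.9, Sema3c at 24.7, Efnb1 at 23.0, Sema3a at 22.9, Sema3e at 22.4, Efna1 at 20.8, Efna5 at 14.997 and Ephb3 at 10.1 FPKM. The order of neighbours is loose: Plxnb2 ranged from 59.8 to 136 FPKM over the libraries and Slit3 from 28.6 to 143 FPKM, and the ranges of Sema3c, Efnb1, Sema3a, Sema3e and Efna1 overlapped one another.

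**Figure D1:**
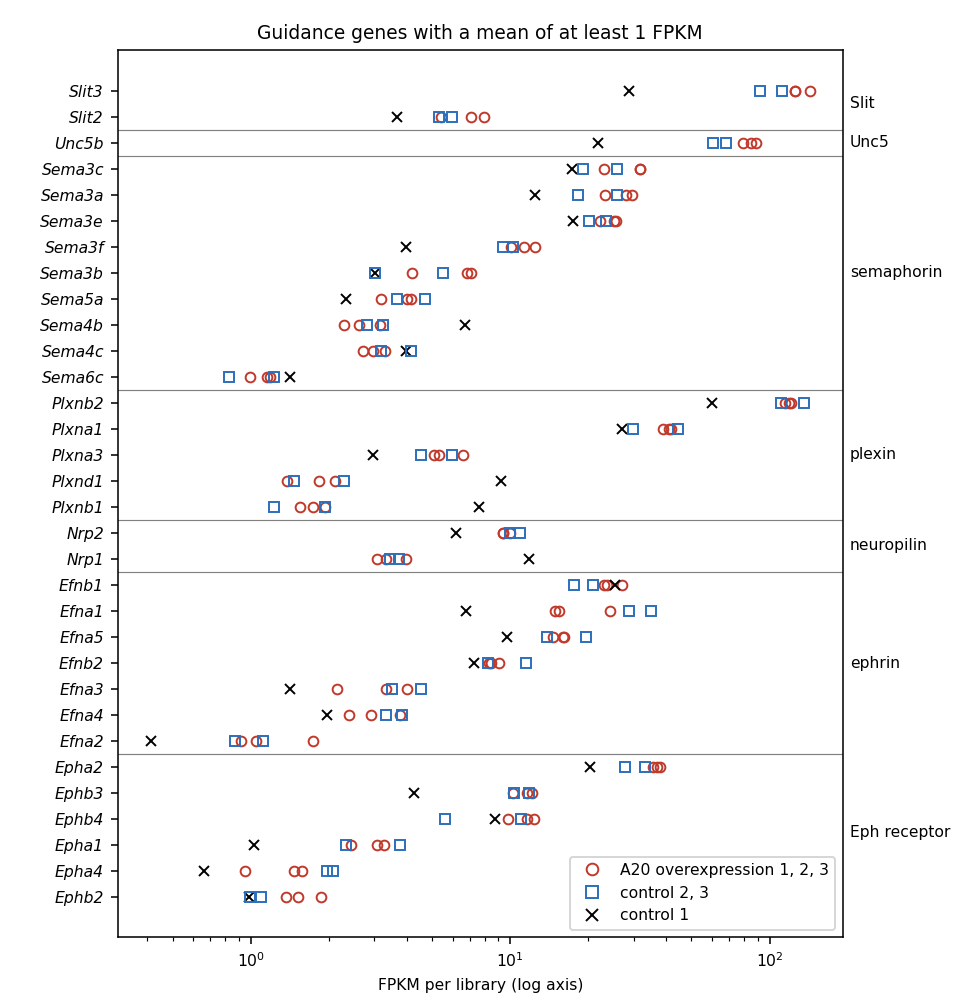
FPKM (log axis) of the 32 guidance genes with a mean of at least 1 FPKM, one row per gene, grouped by family; circles are A20-overexpressing libraries, squares control replicates 2 and 3, and crosses control replicate 1. Plxnb2, Slit3 and Unc5b lie furthest right, and control replicate 1 lies left of the other libraries for Slit3 and Unc5b and right of them for Nrp1, Plxnd1 and Plxnb1.

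Ligands and receptors of a pair were not equally present. Slit3 and Slit2, at 105 and 5.89 FPKM, met almost no Robo RNA in 5 of the 6 libraries. Robo1 had no count there, Robo2 and Robo4 had 0 to 3 counts per library, and Robo3, at 1.18 to 2.81 CPM, was the most abundant of the family at a mean of 0.235 FPKM. The netrin system was the reverse, with a receptor and hardly a ligand. Unc5b averaged 67.1 FPKM and the other 3 Unc5 genes had at most 1 count in any library, while Ntn1 had 0 to 2 counts per library, Ntn4 0 to 10 and Ntn5 1 to 23. Of the other netrin receptors, Dcc had no count, and Neo1, which encodes neogenin, stood at 175, 141 and 175 CPM with A20 overexpression and at 134, 168 and 180 CPM in control replicates 1, 2 and 3.

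With all 6 libraries, no guidance gene passed edgeR's quasi-likelihood test at a Benjamini-Hochberg adjusted p of 0.05. Of the members, 42 had enough counts to be tested and 25 did not, and 0 of the 42 were called, where 0.015% of all 13350 genes tested were (0.00749% higher and 0.00749% lower). DESeq2 and limma-voom also called 0. At an unadjusted p under 0.05 in edgeR, 4 members lay higher (Sema3d, Ephb2, Sema3c and Epha2) and 1 lower (Plxna4), which is 5 of 42, where 10% of all genes lay under that p (4.19% higher and 5.86% lower). The median log2 fold change was 0.20 over the members and -0.03 over all genes tested. In bulk RNA, fewer cells of a type and less RNA per cell cannot be told apart, here or in what follows.

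Without control replicate 1, 1 of the 43 members tested rose and 1 fell, and 41 did not pass. That is 2 of 43, where 4.6% of all 13658 genes were called (1.92% higher, 2.68% lower), so the share of called members was near the background. At an unadjusted p under 0.05, 7 members lay higher and 3 lower, where 21.6% of all genes lay under that p (10.4% higher and 11.2% lower). The median log2 fold change was 0.11 over the members and 0.00 over all genes tested.

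**Figure D2:**
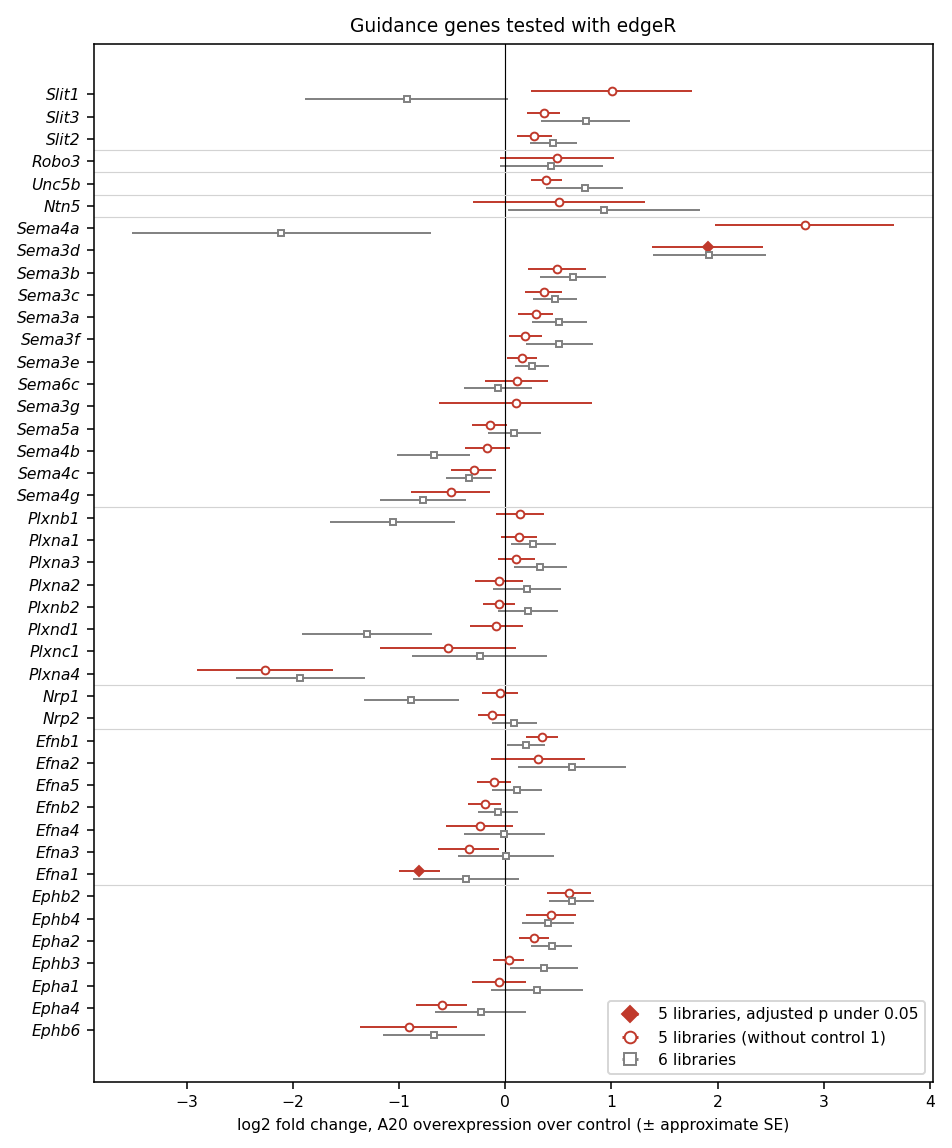
log2 fold change of A20 overexpression over control with its approximate SE for each guidance gene tested with edgeR, grouped by family; red marks the fit of 5 libraries without control replicate 1 and grey squares the fit of all 6. The 2 filled diamonds, Sema3d on the right and Efna1 on the left, passed an adjusted p of 0.05; Sema4a, Plxnb1, Slit1 and Plxnd1 show the widest gaps between the fits.

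Efna1 encodes ephrin-A1, the lipid-anchored ligand that binds EphA2, and was first described in human endothelial cells as a gene induced by TNF. The gene (ENSMUSG00000027954) lies on chromosome 3 at 89271733 to 89281142, minus strand. It stood at 28.3, 43.3 and 27.3 CPM in A20-overexpressing libraries and at 13.8, 59.8 and 52.9 CPM in control replicates 1, 2 and 3. The A20-overexpressing libraries thus lay below control replicates 2 and 3 and above control replicate 1. Without control replicate 1, Efna1 fell to 33.0 CPM ± 8.97 (SD, n = 3) with A20 overexpression, against 56.3 CPM ± 4.89 (SD, n = 2) in control, a log2 fold change of -0.81 ± 0.19 (SE; edgeR adjusted p = 0.0261), or 1.75-fold lower. Over all 6 libraries it was -0.37 ± 0.50 (SE; edgeR adjusted p = 0.843). Without A20-overexpressing replicate 1 or 3, or control replicate 2, the 5-library call was lost as well (edgeR adjusted p = 0.131, 0.134 and 0.103), and so it was in limma on log2 FPKM (adjusted p from 0.120 to 0.159). In these fits the log2 fold change ran from -0.83 to -0.67.

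Efna3 and Efna4 neighbour Efna1 on chromosome 3, the gaps being 32.8 and 10.4 kb with no other protein-coding gene between, and neither was called. Efna3 had 5.26, 7.92 and 9.80 CPM with A20 overexpression and 3.84, 10.3 and 8.60 CPM in control, with a log2 fold change of -0.34 ± 0.29 (SE) in the 5-library fit. Efna4 had a log2 fold change of -0.24 ± 0.31 (SE). The groups overlapped for both genes. Of the 5 ephrin-A genes, 4 had a negative log2 fold change in the 5-library fit and 2 in the 6-library fit.

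The other abundant ephrins did not pass in either fit. Efnb1, on the X chromosome, encodes a transmembrane ephrin and stood at 81.7, 77.7 and 93.9 CPM with A20 overexpression and at 97.8, 57.0 and 72.8 CPM in control. Control replicate 1 was the highest library, so the groups overlapped, and the 5-library log2 fold change was 0.35 ± 0.15 (SE; edgeR adjusted p = 0.189). Efna5, ephrin-A5, had 64.9, 57.5 and 65.1 CPM with A20 overexpression and 43.8, 74.0 and 56.4 CPM in control. Its log2 fold change was -0.10 ± 0.16 (SE) without control replicate 1 and 0.11 ± 0.24 (SE) with all 6.

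Among Eph receptors, 6 of 14 averaged at least 1 FPKM, and 5 (Epha3, Epha5, Epha7, Epha8 and Epha10) had no count. Epha2, the most abundant, had 178, 169 and 166 CPM in A20-overexpressing libraries and 106, 121 and 156 CPM in control. The groups did not overlap, but the log2 fold change was 0.27 ± 0.14 (SE; edgeR adjusted p = 0.284) in the 5-library fit and 0.44 ± 0.19 (SE; edgeR adjusted p = 0.496) with 6. Ephb2, which binds ephrin-B ligands, had 19.3, 16.9 and 23.6 CPM with A20 overexpression and 13.8, 11.7 and 13.9 CPM in control. This gene had nearly the same log2 fold change with 6 libraries, 0.63 ± 0.21 (SE; edgeR adjusted p = 0.426), as with 5, 0.60 ± 0.21 (SE; edgeR adjusted p = 0.107), and control replicate 1 lay among the other controls. Ephb3 had 68.6, 78.6 and 77.2 CPM with A20 overexpression and 31.7, 64.2 and 78.9 CPM in control. Ephb4 had 54.1, 44.3 and 57.4 CPM with A20 overexpression and 45.3, 24.5 and 51.5 CPM in control. Groups overlapped for both, and neither passed. Epha4, which binds both ephrin classes, had 12.8, 11.6 and 7.68 CPM with A20 overexpression and 5.93, 15.6 and 15.97 CPM in control. Like Efna1, its A20-overexpressing libraries lay below control replicates 2 and 3 and above control replicate 1, with a log2 fold change of -0.60 ± 0.24 (SE; edgeR adjusted p = 0.159) in the 5-library fit.

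Sema3d encodes a secreted class 3 semaphorin that acts through neuropilins. It lies on chromosome 5 at 12383385 to 12588948, plus strand (ENSMUSG00000040254). Its counts were 57, 53 and 54 in A20-overexpressing libraries and 15, 20 and 5 in control replicates 1, 2 and 3, or 3.37, 3.39 and 3.58 CPM against 0.977, 1.39 and 0.361 CPM. The groups did not overlap in either fit, and control replicate 1 lay between the other controls. In the 5-library fit Sema3d rose to 3.44 CPM ± 0.115 (SD, n = 3) with A20 overexpression, against 0.878 CPM ± 0.730 (SD, n = 2) in control, 3.75-fold (log2 fold change 1.91 ± 0.52 SE; edgeR adjusted p = 0.0451). Over all 6 libraries it was 1.92 ± 0.53 (SE; edgeR adjusted p = 0.336), and leaving out any A20-overexpressing library or control replicate 3 from the 5-library fit lost the call (edgeR adjusted p from 0.0983 to 0.130), the log2 fold change being 1.22 without control replicate 3 and 3.23 without control replicate 2. The call also ended with limma-voom (log2 fold change 2.18, adjusted p = 0.0534) and with edgeR scaled by library size alone (1.96, adjusted p = 0.0506). It was lost too in edgeR without robust estimation (adjusted p = 0.0592). In limma on log2(FPKM + 1) and log2(FPKM + 0.1) the adjusted p was 0.138 and 0.134. The mean level was low, at 0.254 FPKM, so the size of the change rests on few counts.

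Sema3d heads a row of class 3 semaphorin genes on chromosome 5. Sema3a follows after 536.5 kb with no protein-coding gene between, Sema3e after a further 423 kb, and Sema3c lies 3318 kb beyond. Sema3a had 391, 313 and 411 CPM with A20 overexpression and 192, 336 and 256 CPM in control, with a log2 fold change of 0.29 ± 0.17 (SE; edgeR adjusted p = 0.335) in the 5-library fit. Sema3e had 239, 201 and 235 CPM with A20 overexpression and 181, 204 and 189 CPM in control, and Sema3c had 228, 160 and 227 CPM with A20 overexpression and 138, 172 and 137 CPM in control. The groups overlapped for all 3 genes. Their log2 fold changes were 0.16 ± 0.14 (SE) and 0.36 ± 0.17 (SE) in the 5-library fit, for Sema3e and Sema3c in this order, and neither passed.

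All 7 class 3 semaphorins had a positive log2 fold change in the 5-library fit, from 0.10 to 1.91 with a median of 0.29, and the 6 tested with all libraries ran from 0.25 to 1.92. Only Sema3d among them passed the test, and 49.7% of all genes tested had a positive value in the 5-library fit. Sema3b had 20.1, 33.0 and 32.7 CPM with A20 overexpression and 16.03, 13.5 and 26.6 CPM in control, and Sema3f had 52.6, 63.1 and 58.8 CPM with A20 overexpression and 23.0, 45.9 and 53.9 CPM in control, the groups overlapping for both. Class 4 semaphorins, which span the membrane, differed in their values: 4 were tested, with 1 positive and 3 negative without control replicate 1 and 4 negative with it. Sema4a was behind most of that gap. It had 14, 15 and 22 counts with A20 overexpression and 231, 1 and 3 counts in control replicates 1, 2 and 3, so that its log2 fold change was 2.82 ± 0.84 (SE; edgeR adjusted p = 0.0626) with 5 libraries and -2.11 ± 1.40 (SE; edgeR adjusted p = 0.645) with 6.

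**Figure D3:**
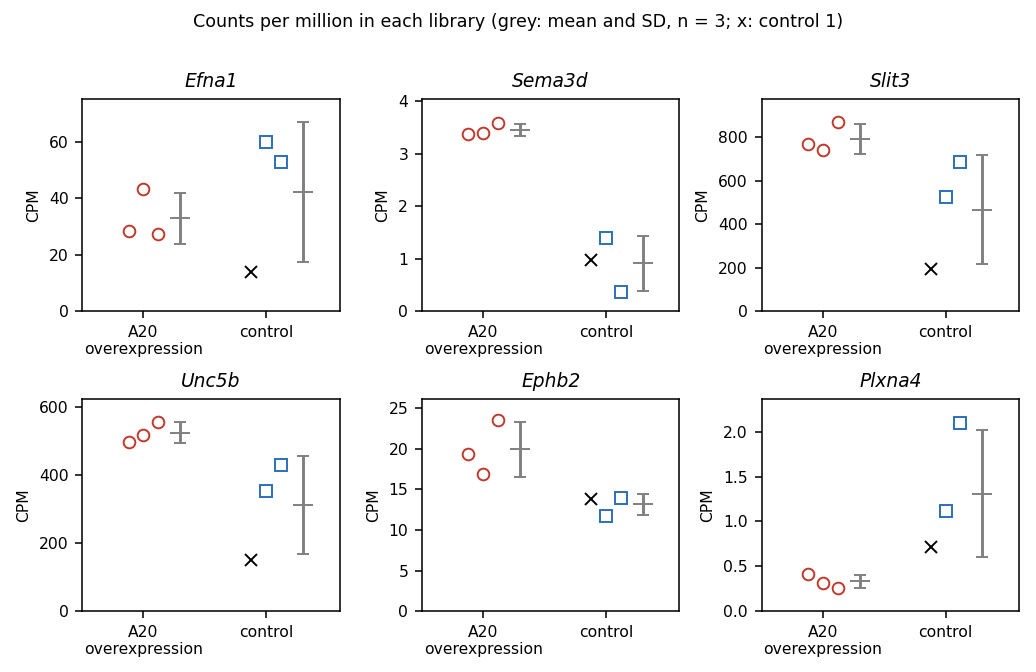
CPM in each library for Efna1, Sema3d, Slit3, Unc5b, Ephb2 and Plxna4, with A20-overexpressing libraries as circles, control replicates 2 and 3 as squares and control replicate 1 as a cross; grey marks are the mean and SD of 3 libraries. Groups do not overlap for Sema3d, Slit3, Unc5b, Ephb2 and Plxna4, and for Efna1 control replicate 1 at 13.8 CPM lies below the other libraries.

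The receptors of these semaphorins gave no call. Plxnb2 stood at 940, 893 and 891 CPM with A20 overexpression and at 515, 798 and 1053 CPM in control, so the controls spanned the A20-overexpressing libraries. Its log2 fold change was -0.06 ± 0.15 (SE) with 5 libraries and 0.21 ± 0.28 (SE) with 6. Plxna1, a partner of neuropilins, had 355, 362 and 380 CPM with A20 overexpression and 271, 253 and 403 CPM in control, and Plxna3 had 40.1, 40.8 and 51.9 CPM with A20 overexpression and 25.9, 33.4 and 47.2 CPM in control. Nrp2, the more abundant neuropilin at 9.32 FPKM, had 112, 116 and 112 CPM with A20 overexpression and 81.6, 121 and 119 CPM in control. Groups overlapped for Plxna1, Plxna3 and Nrp2.

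Plxna4, a plexin that pairs with neuropilins for class 3 semaphorins, had the lowest log2 fold change of the members tested in the 5-library fit. Its counts were 7, 5 and 4 with A20 overexpression and 11, 16 and 29 in control, without overlap. The log2 fold change was -2.26 ± 0.64 (SE; edgeR adjusted p = 0.0524) with 5 libraries and -1.93 ± 0.61 (SE; edgeR adjusted p = 0.401) with 6. At 0.0581 FPKM on average, this was one of the faintest members tested.

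Slit3 and Unc5b lay higher in each A20-overexpressing library than in any control, without passing the test. Slit3 (ENSMUSG00000056427, chromosome 11, 35121224 to 35708507, plus strand) had 767, 742 and 870 CPM with A20 overexpression and 194, 524 and 685 CPM in control replicates 1, 2 and 3. Its log2 fold change was 0.36 ± 0.15 (SE; edgeR adjusted p = 0.180) without control replicate 1 and 0.76 ± 0.42 (SE; edgeR adjusted p = 0.573) with it. Unc5b (ENSMUSG00000020099, chromosome 10, 60762593 to 60831581, minus strand), which encodes a netrin receptor, had 496, 519 and 557 CPM with A20 overexpression and 152, 354 and 429 CPM in control. Its log2 fold change was 0.39 ± 0.15 (SE; edgeR adjusted p = 0.131) and 0.75 ± 0.36 (SE; edgeR adjusted p = 0.531) in the same order. Slit2 had 181, 134 and 203 CPM with A20 overexpression and 104, 126 and 152 CPM in control, with overlap. Robo3 and Ntn5, the most abundant Robo and netrin genes, had 5-library log2 fold changes of 0.49 ± 0.54 (SE) and 0.51 ± 0.81 (SE).

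The CPM values separated the groups for 6 of the 42 members tested with all libraries (5 higher and 1 lower), as for 16.9% of all genes (7.62% higher and 9.27% lower). Those 6 were Sema3d, Ephb2, Epha2, Slit3, Unc5b and Plxna4. In the 5-library fit, 12 of 43 were separated (7 higher and 5 lower), as for 37.9% of all genes (20.7% higher and 17.2% lower). Shares this near the background say nothing particular about the families.

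The larger spread among guidance genes was between control replicate 1 and the other 5 libraries, and it has no replicate. For the 35 members with at least 5 CPM in control replicate 1 or on average in the others, that library lay above the range of the other 5 for 10 genes (28.6%), below it for 20 (57.1%) and within it for 5. Over all 11169 genes of that level the shares were 45.9% above and 21.8% below. These CPM are scaled to library totals alone. The TMM scaling factor of edgeR was 1.11 for control replicate 1 and 0.937 to 0.998 for the other 5. Its CPM thus run high relative to TMM scaling, which shifts the shares above and below for members and all genes alike. The median log2 ratio of control replicate 1 to the other 5 was 0.18 over all these genes and -0.50 over the members. A gene near 5 CPM can enter on the side where it is high. With at least 5 CPM on both sides, 7 of 29 members lay above and 17 below, where 41.2% of all 9811 such genes lay above and 23.1% below. Robo1, the classical Slit receptor, had 299 counts (19.5 CPM) in control replicate 1 and none in the other 5, where 3 counts would be 0.177 to 0.217 CPM, so it was at least 89.9-fold higher against the highest of these per-library floors. It could not be tested in either fit. Slit3, by contrast, was low in that library, at 194 CPM against 524 to 870 CPM in the rest, and Unc5b had 152 CPM against 354 to 557 CPM.

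Receptors of semaphorins stood apart in both directions: of 6 plexins at that level 2 lay above the range of the other libraries, 3 below and 1 within, and of the neuropilins 1 lay above and 1 below. Plxnd1, a receptor for Sema3e, was at 75.2 CPM in control replicate 1 and at 10.04 to 16.8 CPM in the rest. Plxnb1, a receptor for class 4 semaphorins, was at 81.4 CPM against 11.1 to 18.7 CPM, and Nrp1 was at 129 CPM against 29.3 to 39.1 CPM. Plxnb2, at 515 CPM against 798 to 1053 CPM, lay below, as did Plxna2, Plxna3 and Nrp2. The comparison of A20 overexpression with control depended on that library for Nrp1, Plxnd1 and Plxnb1: the log2 fold change was -0.05 ± 0.17 (SE) for Nrp1, -0.08 ± 0.25 (SE) for Plxnd1 and 0.14 ± 0.23 (SE) for Plxnb1 without it. With it the values were -0.88 ± 0.44, -1.30 ± 0.61 and -1.06 ± 0.59 (SE) for the same genes, and none passed in either fit. Sema4a, at 15.05 CPM against 0.0697 to 1.46 CPM, was the semaphorin that stood furthest apart. Of the other class 4 genes, Sema4b was at 42.3 CPM against 13.0 to 18.4 CPM and Sema4c at 20.3 CPM against 12.5 to 19.2 CPM. Control replicate 1 also held more RNA of endothelial markers, 35.6 CPM in sum against 0.139 to 0.639 CPM, mostly Cdh5, while Emcn and Kdr had no count there. Sums for neuron markers were 48.5 CPM against 0.255 to 1.18 CPM, with Snap25, Rbfox3 and Elavl3 at 0. For germ cell markers they were 19.7 CPM against 0.506 to 3.90 CPM, mostly Kit, and for Sertoli markers 13.8 CPM against 0.0697 to 1.66 CPM, with Sox9 and Fshr at 0. Peritubular myoid markers summed to 88.7 CPM against 36.7 to 59.6 CPM, mostly Acta2, at 77.6 CPM against 13.4 to 39.2 CPM. In that list Myh11 was at 0.586 CPM against 0.0697 to 0.447 CPM. Des was lower, at 6.58 CPM against 14.7 to 19.3 CPM, and Cnn1 lay within the range, at 3.91 CPM against 3.21 to 5.27 CPM. Glia markers summed to 1.82 CPM against 1.084 to 1.95 CPM, and macrophage markers were lower, at 4.43 CPM against 20.7 to 39.9 CPM. The part of these markers in the guidance gene values was not tested.

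**Figure D4:**
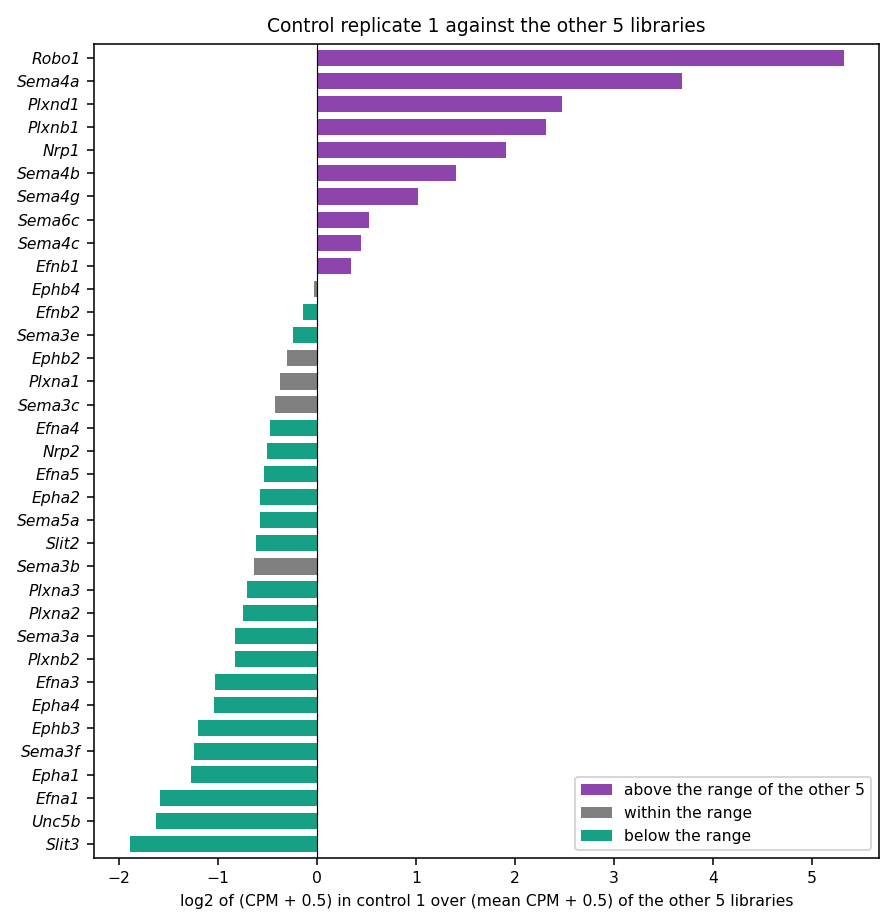
log2 ratio of CPM + 0.5 in control replicate 1 to the mean CPM of the other 5 libraries + 0.5, for the 35 guidance genes with at least 5 CPM on either side; colours show whether control replicate 1 lay above, within or below the range of the other 5. Robo1 stands at the top at 5.32 and Slit3 at the bottom at -1.89.

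Genes that act with or below the guidance receptors were examined from a list of 84 co-receptors, further ligands and cytoplasmic effectors, 64 of which were tested in each fit. With all 6 libraries edgeR and limma-voom called 0. DESeq2, which kept every gene with a count, fitted 78 of the list and called 1 (Flrt1, a ligand of Unc5 receptors), and 162 of all 26303 genes. Flrt1 had 0.532, 0.639 and 0.464 CPM with A20 overexpression and 12.96, 0.767 and 2.46 CPM in control replicates 1, 2 and 3. Without control replicate 1 its log2 fold change was -1.56 ± 0.63 (SE; edgeR adjusted p = 0.159), and DESeq2 did not call it either. In edgeR 5 lay higher and 2 lower at an unadjusted p under 0.05, or 7 of 64, near the 10% of all genes (4.19% higher and 5.86% lower). Without control replicate 1, 2 rose, 1 fell and 61 did not pass, or 3 of 64, where 4.6% of all genes were called. The median log2 fold change of the list was 0.04 in this fit.

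Rras2 encodes a small GTPase of the R-Ras group, on which the plexin cytoplasmic domain acts as a GTPase-activating protein. It had 353, 310 and 387 CPM with A20 overexpression and 334, 188 and 199 CPM in control replicates 1, 2 and 3, so control replicate 1 lay among the A20-overexpressing libraries. Without it Rras2 rose 1.77-fold (log2 fold change 0.82 ± 0.15 SE; edgeR adjusted p = 0.00566). Arhgap35, which encodes p190RhoGAP, had 89.9, 71.1 and 93.3 CPM with A20 overexpression and 141.5, 51.5 and 54.8 CPM in control, and rose 1.56-fold in the 5-library fit (edgeR adjusted p = 0.0251), with control replicate 1 above every other library. Dpysl3, a collapsin response mediator protein gene, had 56.5, 48.5 and 61.5 CPM with A20 overexpression and 67.9, 86.2 and 85.7 CPM in control. It fell 1.59-fold without control replicate 1 (edgeR adjusted p = 0.0160), and the groups did not overlap with all 6 libraries (log2 fold change -0.51 ± 0.19 SE; edgeR adjusted p = 0.447). Over all 6, Rras2 and Arhgap35 had edgeR adjusted p = 0.433 and 0.938. In the 5-library fit the call ended without A20-overexpressing replicate 3 for each of the 3 genes (edgeR adjusted p = 0.0559 for Rras2, 0.158 for Arhgap35 and 0.0517 for Dpysl3), without replicate 1 for Arhgap35 and Dpysl3 (0.120 and 0.0830), and without replicate 2 for Dpysl3 (0.0873).

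Leaving control replicate 1 aside, macrophage and peritubular myoid marker sums exceeded the Leydig marker sum of 3.97 to 7.86 CPM in both groups. The sums of the remaining lists were low. Macrophage markers, mostly Cd68, summed to 20.7 to 39.9 CPM with A20 overexpression and 32.1 to 32.3 CPM in control, with Adgre1 and Ptprc at 0. Peritubular myoid markers summed to 36.7 to 46.2 CPM with A20 overexpression and 41.5 to 59.6 CPM in control. Endothelial, neuron, glia, Sertoli and germ cell lists reached at most 3.90 CPM in either group.

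Reads of overlapping genes can be shared where the counting ignored strand, which is not given in the sources used here. Neither Efna1 nor Sema3d shares exonic bases with another gene in GENCODE M21. Epha1 shares 236 bases, 6.01% of its length, with Zyx on the opposite strand, which stood at 363 CPM on average against 10.4 CPM for Epha1, so values of Epha1 are uncertain. Plxna1, at 337 CPM on average, shares 10.7% of its length with an antisense gene at 1.42 CPM. Efna4, at 4.83 CPM, shares 10.5% with an antisense gene at 1.13 CPM, so values of Efna4 are uncertain too. Efna3, at 7.62 CPM, shares 14.1% with an antisense gene at 0.173 CPM.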

How the data were processed

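Counts per gene were used as deposited; the FPKM values were made by the authors from the counts, and the library size behind them, worked out from both deposited tables, tracked DESeq2-type size factors. Per the submitters' processing notes the build was GRCm38 (mm10). Aligner, counter and strandedness are not given in the sources used here. All 67 members had the same position in GENCODE M21. Groups were taken from the sample titles. The comparison used edgeR 4.0.16 (R 4.3.3): quasi-likelihood F test with TMM factors, the default low-count filter and robust estimation, p-values being adjusted by Benjamini-Hochberg across every gene tested. A positive log2 fold change means higher with A20 overexpression; its SE is approximate, the log2 fold change divided by the square root of F. CPM values are counts scaled to the library total. Floors of 3 counts cover counting error only, since no molecular identifiers are described. DESeq2 1.42.0, limma 3.58.1 and other settings served as alternatives. The procedure was tested on simulated counts, with changes planted in genes of about 5 CPM or more. With 6 libraries it recovered 44% of planted 2-fold and 89% of planted 4-fold changes, with 13 false calls. With 5 libraries the shares were 81% and 100%, with 14 false calls. Apart from the planted changes, the simulated libraries shared a common mean per gene. None stood apart as control replicate 1 does, although the spread for 6 libraries was estimated with it included. The shares for 6 libraries may thus not hold for the real fit. A gene not called with 6 libraries may therefore still have changed 2-fold. Motifs were searched in Python 3.11.15. Named genes were those called in either fit and called effectors. Per family, the up to 3 most abundant with a mean of at least 1 FPKM were named, or else the single highest. Members with an unadjusted p under 0.05 in both fits and no overlap were named too. So were members at least 4-fold apart in control replicate 1, outside the range of the other 5 and with at least 5 CPM in the higher. Genes named beyond this, such as Neo1, Dcc, Efna3, Efna4, Epha4, Sema3b, Sema3f and Flrt1, were chosen after their values were seen. The members and lists were chosen with earlier results of these data known.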

Additional observations from a re-analysis of the deposited data

How the results depend on the processing

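Over all 6 libraries, 0 guidance genes were called under every alternative normalization, filter and tool run and under the replicate block, and 0 to 2 when each library was left out, the 2 without control replicate 1. In the fit of 5 libraries the count was 2. It was 3 without a filter (Efna1, Sema3d and Plxna4), 1 with library size alone, with limma-voom and without robust estimation (Efna1 each time), 0 with limma-trend on log2(FPKM + 1), on log2(FPKM + 0.1) and on genes with a mean of at least 1 FPKM, and 0 to 8 when each library was left out, the 8 resting on control replicate 2 as the lone control, assumed to vary like the other group. That fit called 8 of 46 members where it called 2423 of all 14338 genes. The replicate block gave 4 (Efna1, Sema3b, Sema3d and Sema4a) and called 797 genes in all against 628. In that block A20-overexpressing replicate 1 had no control of its number, so its own block term fitted it exactly. The group difference there rested on replicates 2 and 3 alone, and little was left to estimate the spread. Correlations of same-numbered deviations from the group means were 0.0258, 0.115 and -0.0387, and those of different numbers ran from -0.186 to 0.162. Whether the replicate numbers pair the samples could not be decided this way, because control replicate 1 shifts the mean behind every control deviation. Effectors called over 6 libraries were 0, with 1 under DESeq2 and 0 to 3 over left-out libraries. In the fit of 5 they were 3, with 7 without a filter, 1 with limma-trend on log2(FPKM + 1), 0 with the other FPKM fits, and 0 to 13 over left-out libraries, the 13 of 64 without control replicate 3. Calls over all genes ranged widely as well: over 6 libraries 2, with 23 without a filter and 162 under DESeq2, and without control replicate 1 628, with 1173 without a filter 109, 63 and 35 under the FPKM fits and 142 to 2423 over left-out libraries. Fitted without a filter and with DESeq2, the median log2 fold change of all genes over 6 libraries was -0.164 and -0.179. The cause of these differences was not tested.

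Of 656 log2 fold changes of named genes under alternatives other than leaving a library out, 3 changed sign. These were Plxnd1 without control replicate 1 (0.10 under the block), and Sema4a over 6 libraries (0.42 with limma-voom and 0.40 under the block). For Plxnd1 that block in effect set A20-overexpressing replicate 1 aside, as it had no control of its number. Leaving out 1 library at a time from the 6 changed the sign for Efna1 (-0.81 to 0.034), Robo3 (-0.017 to 0.66), Efna5 (-0.10 to 0.39), Nrp2 (-0.12 to 0.24), Plxnb2 (-0.057 to 0.48), Plxnb1 (-1.46 to 0.14), Sema4a (-2.67 to 2.82) and Arhgap35 (-0.10 to 0.64). From the 5, it did so for Ephb3 (-0.065 to 0.14), Efna5 (-0.32 to 0.16), Ntn5 (-0.39 to 3.52), Nrp1 (-0.17 to 0.035), Plxnb2 (-0.20 to 0.11), Plxna1 (-0.13 to 0.45), Plxna3 (-0.082 to 0.33), Plxnd1 (-0.37 to 0.29) and Plxnb1 (-0.15 to 0.51). Sema3d and Plxna4 rest on 4 to 57 counts per library, and 32 of the 67 members stayed under 1 FPKM in every library, where differences were mostly not detectable at this depth.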
